A study of Mus musculus with 2 samples.

Results

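The cell cycle genes described here are 42 mouse genes, chosen by name as 25 genes of mitosis and 17 genes of S phase, out of 32285 genes counted in the series. They were measured by single-cell RNA sequencing of whole orthotopic pancreatic tumors, with 1 library from flox mice and 1 library labelled PSCs-MCT1-/-. The tumors grew in male mice after KPC cells, cultured mouse pancreatic cancer cells, had been injected in Matrigel under the pancreatic capsule. In the conditional line a tamoxifen-inducible Cre driven by Col1a2 removes Slc16a1, the gene of the lactate transporter MCT1, from pancreatic stellate cells (PSCs) and from any other cell that uses Col1a2, while flox mice keep the MCT1 fl/fl allele undeleted. In the study's scheme both groups start from mice with this Cre and the floxed allele and differ by tamoxifen or its corn oil vehicle. The tumor cells themselves were of the same KPC line in both groups and neither the age of the mice nor the number behind each library is given in the labels. Because each condition has 1 library, no difference between libraries could be tested, no p-value is given, and all intervals are 95% intervals that cover counting error only.

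A dividing cell first commits to replication in G1, copies its DNA in S phase and then separates the copies in mitosis, and the genes for each step are switched on shortly before they are used. S phase genes are transcribed largely under E2F factors, which are freed when the retinoblastoma protein is phosphorylated. Mitosis genes peak later, and many of their promoters carry CCAAT boxes bound by NF-Y and a cell cycle homology region (CHR) bound by the DREAM and MuvB complexes. In pancreatic tumors both cancer cells and infiltrating immune cells can divide, so that the level of these genes depends on the cell type in which it is read.

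Promoter windows of 300 bases, from 250 before to 50 after the gene's start, were matched by symbol for 35 of the 42 genes in RefSeq (build GRCm38.p6), 21 of the mitosis list and 14 of the S phase list. The first window listed for a symbol was used, and other starts of the gene were not searched. Some starts differ from those of the GENCODE vM21 annotation. For Cdca8, on the minus strand of chromosome 4, the window ends at 124937167 and the GENCODE gene starts at 124939311. The genes without a window were Ccna2, Tpx2, Aurkb, Kif20a, Mcm4, Gins2 and Ccne2. A CHR match (TTTGAA or TTTAAA, either strand) was found in 19 of 21 mitosis windows, or 90.5%, and in 5 of 14 S phase windows, or 35.7%, beside 27.8% of the windows of all 27025 genes. A CCAAT box (CCAAT, either strand, overlapping matches counted apart) was found in 19 of 21 mitosis windows and 9 of 14 S phase windows, beside 37.9% of all windows. At least 2 boxes stood in 66.7% of the mitosis windows and 42.9% of the S phase windows beside 12.2% of all. An E2F-type match (TTTCCCGC, TTTGGCGC, TTTCGCGC or TTTGCCGC, either strand, overlapping matches counted apart) was found in 7 of 14 S phase windows, or 50%, in 1 of 21 mitosis windows (Cdk1), and in 2.32% of all windows. The median GC content was 57.7% and 57.5% in the mitosis and S phase windows and 52.7% in all. The 7 S phase genes with an E2F-type match were Cdc6, Cdt1, Mcm3, Mcm5, Mcm6, Mcm7 and Pclaf, and Nusap1, Tyms and E2f1 held none of the 3 motifs, which says only that these letters are absent from these windows.

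**Figure D1:**
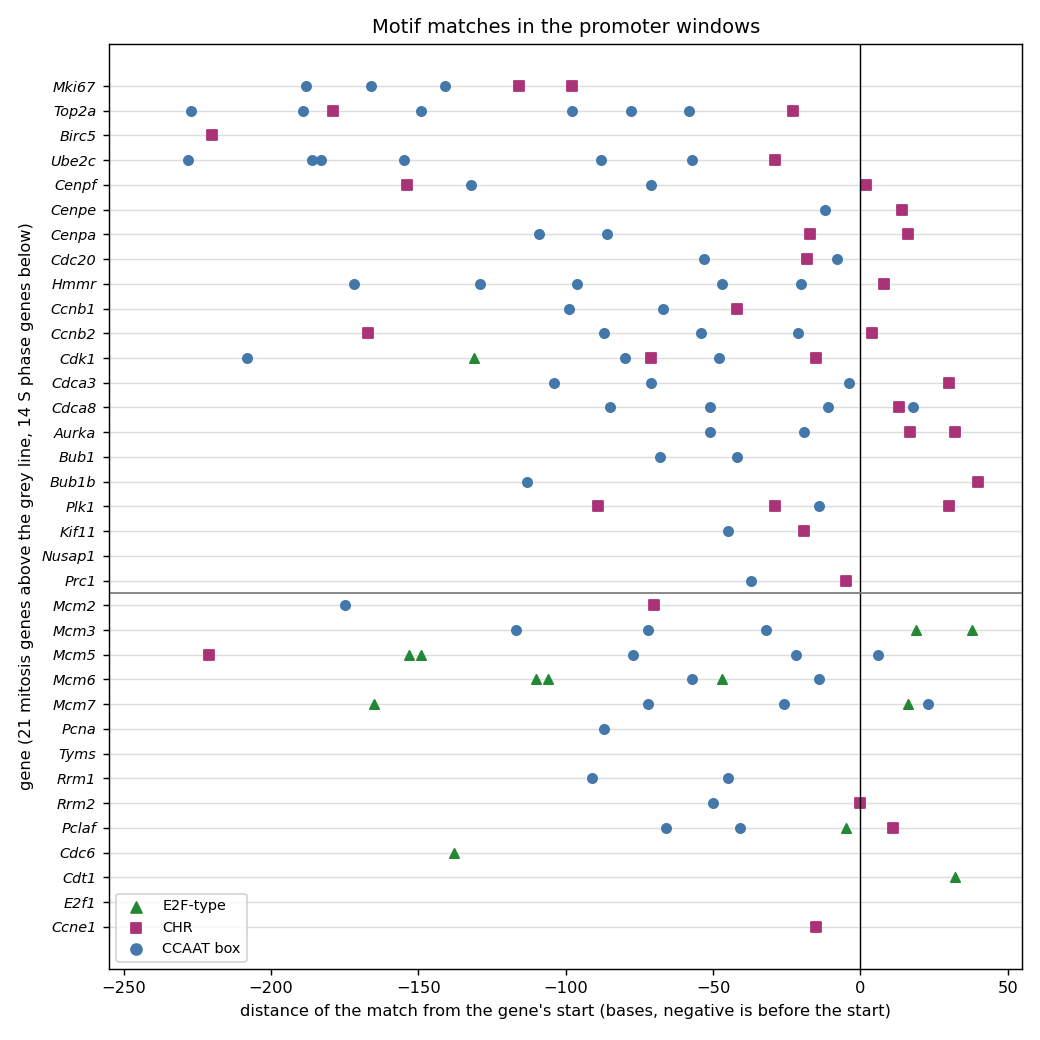
Position of each motif match in the promoter windows of 35 cell cycle genes, as bases from the gene's start (horizontal axis), with 1 row per gene. A CHR or CCAAT match stands in every mitosis row but that of Nusap1, while E2F-type matches stand in 7 of the 14 S phase rows and in 1 mitosis row.

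The promoters below are the 2 mitosis genes with the most CCAAT boxes and the 2 S phase genes with the most E2F-type matches before the start, and are shown as examples of each motif. For the mitosis genes the capitals mark CCAAT boxes and CHR matches, and for the S phase genes they mark E2F-type matches. The 250 bases before the start are printed 5′ to 3′ on the strand of the gene.
Top2a, chr11:99024190-99024439, minus strand: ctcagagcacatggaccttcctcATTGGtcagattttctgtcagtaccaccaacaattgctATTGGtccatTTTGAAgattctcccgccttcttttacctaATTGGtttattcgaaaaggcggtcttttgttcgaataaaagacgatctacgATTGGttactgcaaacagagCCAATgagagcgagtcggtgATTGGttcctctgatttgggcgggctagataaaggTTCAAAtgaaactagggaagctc
Ube2c, chr2:164769679-164769928, plus strand: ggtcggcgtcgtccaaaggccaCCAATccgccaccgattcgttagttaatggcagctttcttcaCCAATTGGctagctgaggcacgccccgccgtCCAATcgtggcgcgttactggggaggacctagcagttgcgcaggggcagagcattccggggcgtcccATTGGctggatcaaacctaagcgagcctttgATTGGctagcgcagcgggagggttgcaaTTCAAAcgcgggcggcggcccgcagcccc
Mcm6, chr1:128359706-128359955, minus strand: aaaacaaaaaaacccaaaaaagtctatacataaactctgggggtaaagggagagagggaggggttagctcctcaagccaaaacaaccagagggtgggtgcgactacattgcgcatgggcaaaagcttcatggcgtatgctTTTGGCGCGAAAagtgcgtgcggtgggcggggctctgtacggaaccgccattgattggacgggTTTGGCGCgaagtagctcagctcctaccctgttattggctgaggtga
Mcm5, chr8:75109259-75109508, plus strand: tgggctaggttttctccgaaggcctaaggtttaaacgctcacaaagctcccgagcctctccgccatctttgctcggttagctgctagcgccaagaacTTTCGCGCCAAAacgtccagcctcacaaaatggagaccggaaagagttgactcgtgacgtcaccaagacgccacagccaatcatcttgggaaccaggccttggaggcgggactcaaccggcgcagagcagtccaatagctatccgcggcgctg
Top2a and Ube2c each held 6 CCAAT boxes before the start, Mcm6 held 3 E2F-type matches and Mcm5 held 2. Different motifs are capitalised in each list: Mcm6 and Mcm5 also held 2 CCAAT boxes each before the start, and Mcm5 held 1 CHR match, which are left in lower case. A match is a description of the sequence and not a measured binding site.

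The libraries held 8739 (flox) and 11689 (PSCs-MCT1-/-) barcodes with at least 500 UMIs, 200 to 5000 genes and a mitochondrial share up to 8%, with medians of 4069 and 3706 UMIs, and 59 barcode sequences occurred in both. Barcodes were put into classes by fixed marker genes, none of which is a cell cycle gene, and 31.5% and 31.6% of barcodes stayed unassigned. Tumor-like barcodes numbered 2036 and 3927, macrophage/monocyte-like 2234 and 2014, T/NK-like 508 and 447, neutrophil-like 584 and 657, PSC-like 369 and 467, and endothelial-like 95 and 112. With classes taken from clusters, tumor-like barcodes numbered 4377 and 4894. The summed markers of each of these 6 classes were highest in the class itself, which follows from the assignment by the same genes and does not check the class names. Acinar markers were higher in every one of them in the library labelled PSCs-MCT1-/-, for example at 1581 against 127 CPM (UMIs of the genes per 1000000 UMIs of the class) in T/NK-like barcodes and 635 against 32.6 in tumor-like barcodes. Slc16a1 was at 34.2 CPM in PSC-like barcodes of the flox library and at 44.2 in those labelled PSCs-MCT1-/-, a ratio of 1.29 (1.05 to 1.60). The level of the targeted gene was therefore not lower in the library labelled as its knockout. Its ratio was also 1.24 (1.16 to 1.33) in tumor-like, 1.65 (1.19 to 2.28) in macrophage/monocyte-like and 1.06 (0.65 to 1.71) in T/NK-like barcodes. The kit reads 3′ ends and the study draws the floxed part as an inner stretch of exons. Whether these counts include transcripts of a deleted allele was not tested, so that this value does not check the label.

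T/NK-like barcodes carried the highest level of both gene lists among the 6 classes with at least 50 barcodes in each library, within the limit of 5000 genes per barcode. With no such limit tumor-like barcodes stood highest for the mitosis genes in the library labelled PSCs-MCT1-/-, at 1486 against 1031 CPM, while T/NK-like barcodes stayed highest in flox (1794 against 1316 CPM) and for the S phase genes in both libraries. Summed over the 25 mitosis genes, flox T/NK-like barcodes held 1818 CPM (1762 to 1876), against 1032 CPM (981 to 1086) for those labelled PSCs-MCT1-/-. In the flox library the order below them was macrophage/monocyte-like (848 CPM), endothelial-like (762 CPM), neutrophil-like (723 CPM), tumor-like (542 CPM) and PSC-like (253 CPM), and the counting intervals of endothelial-like (694 to 834 CPM) and neutrophil-like barcodes (673 to 775 CPM) overlapped. In the library labelled PSCs-MCT1-/- the order was tumor-like (689 CPM), macrophage/monocyte-like (647 CPM), endothelial-like (473 CPM), neutrophil-like (320 CPM) and PSC-like (227 CPM). The 17 S phase genes summed to 964 and 741 CPM in T/NK-like barcodes and to 214 and 212 CPM in PSC-like barcodes, which were at the lower end in flox and differed little from endothelial-like (218 CPM) and neutrophil-like (186 CPM) barcodes in the other library. Dendritic-like barcodes (85 and 48), outside this comparison, held 1197 CPM (1128 to 1269) and 1246 CPM (1137 to 1362) of the mitosis list, which overlapped. The second value was above that of T/NK-like barcodes in the same library. Their S phase genes stood at 846 and 530 CPM, below T/NK-like barcodes in both libraries.

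Free RNA is the background for these levels. Empty barcodes with 10 to 100 UMIs held 795 and 843 CPM of the mitosis list and 474 and 418 CPM of the S phase list. The levels in empty barcodes were above those of the tumor-like, endothelial-like, neutrophil-like and PSC-like classes for both lists, and above those of the macrophage/monocyte-like class except for the mitosis list in flox. The part of free RNA in the class levels was not tested beyond the subtraction given with the alternatives.

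**Figure D2:**
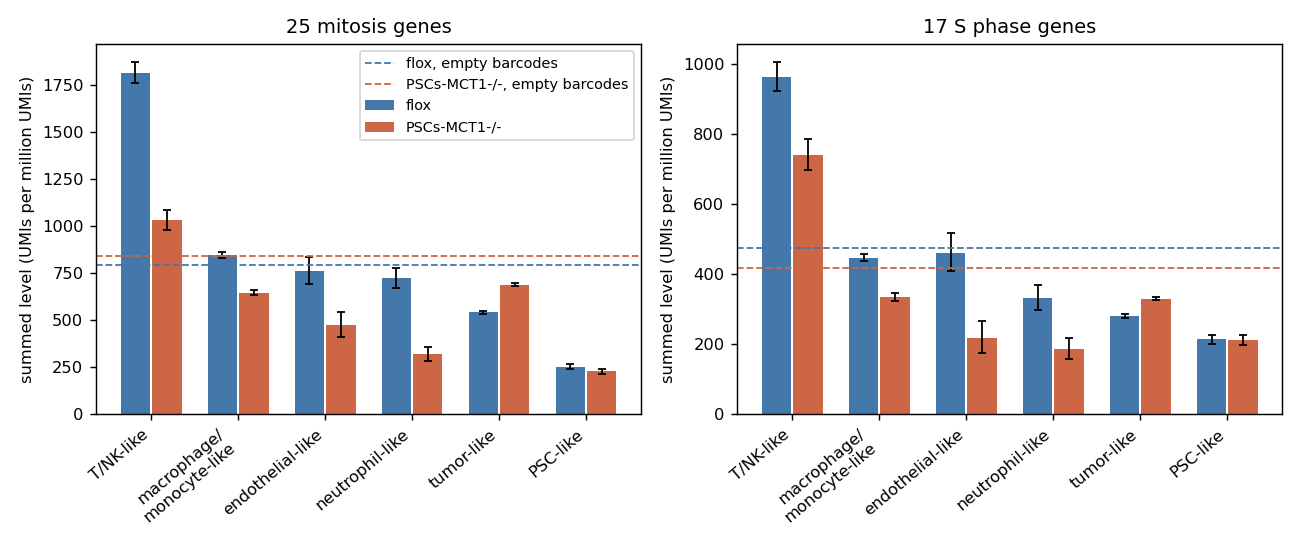
Summed level of the 25 mitosis genes (left) and the 17 S phase genes (right) in 6 classes, in CPM, with 1 bar per library and 95% counting intervals. Dashed lines give the level in empty barcodes, which T/NK-like barcodes exceed in both libraries and PSC-like barcodes do not reach.

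The mitosis genes were concentrated in few barcodes of each class. The 5% of barcodes with the most mitosis UMIs held 52.7% and 55.1% of the list's UMIs in tumor-like barcodes, 57.7% and 67.0% in T/NK-like barcodes and 63.6% and 67.5% in macrophage/monocyte-like barcodes. After every barcode was thinned to 1000 UMIs, at least 2 UMIs of the mitosis list were found in 16.4% (13.3 to 20.002%) of T/NK-like barcodes of the flox library and 8.50% (5.99 to 11.6%) of those labelled PSCs-MCT1-/-, against 39.2% and 23.5% before thinning. The thinned share was 11.4% (10.02 to 12.8%) and 12.9% (11.9 to 14.0%) in tumor-like barcodes, against 71.1% and 65.7% before thinning at medians of 17627 and 15648 UMIs per barcode. It was 10.7% (9.40 to 12.1%) and 8.19% (7.01 to 9.49%) in macrophage/monocyte-like barcodes. In dendritic-like barcodes it was highest, at 19.0% (11.3 to 29.1%) and 19.1% (9.15 to 33.3%), on 16 of 84 and 9 of 47 barcodes. These wide intervals overlapped those of T/NK-like barcodes. Neutrophil-like barcodes gave 2.91% and 3.35% at medians of 1505 and 1081 UMIs, and PSC-like barcodes gave 3.48% and 2.89% at medians of 14990 and 9257 UMIs, with overlapping intervals of 1.67 to 4.69% and 1.84 to 5.56% for the former and 1.81 to 5.997% and 1.55 to 4.89% for the latter. Neither class is a background free of dividing cells, and no share for free RNA alone was computed. For the S phase list the thinned share was 13.2% and 11.2% in T/NK-like barcodes, 6.05% and 6.25% in tumor-like, 7.34% and 4.30% in macrophage/monocyte-like, 2.90% and 2.00% in PSC-like and 2.19% and 0.478% in neutrophil-like barcodes. Thinning left out 35 and 239 neutrophil-like barcodes with fewer UMIs, 15 and 35 T/NK-like, 4 and 38 tumor-like, 110 and 60 macrophage/monocyte-like and 24 and 17 PSC-like barcodes.

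**Figure D3:**
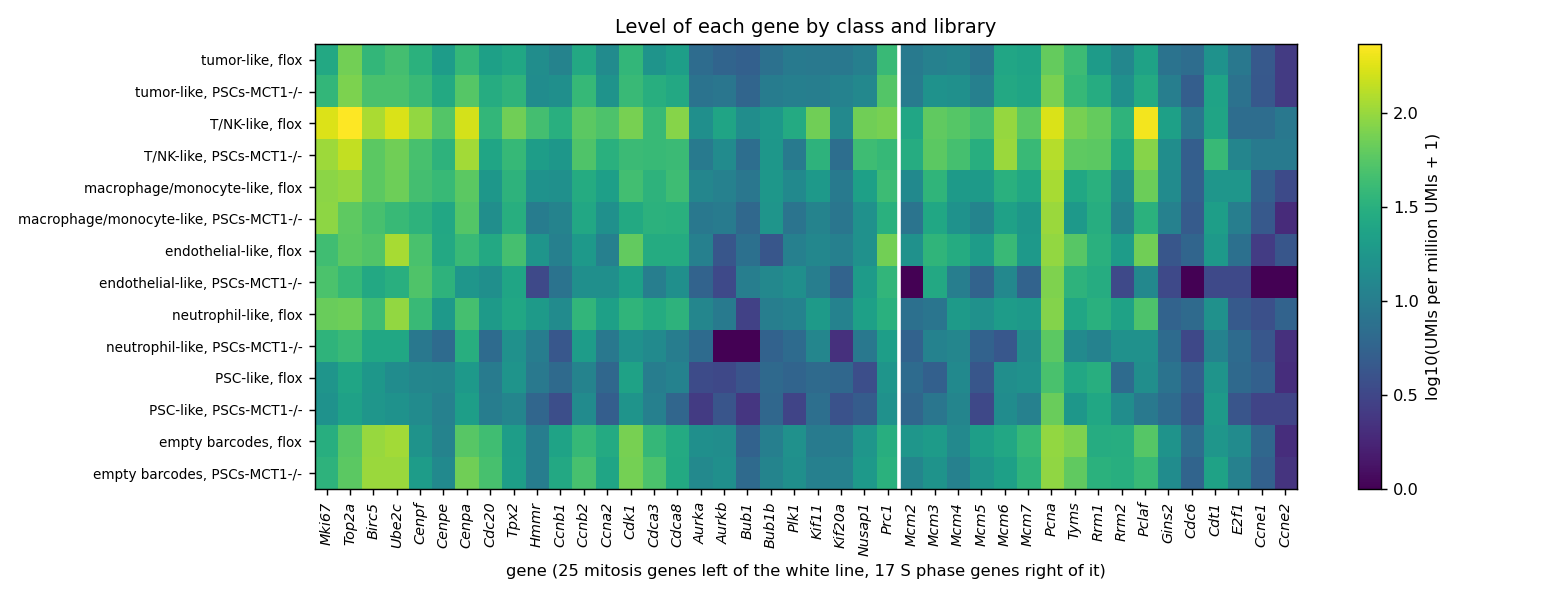
Level of each of the 42 genes (columns) in 6 classes and in empty barcodes of both libraries (rows), as log10 of CPM plus 1. Among the 6 classes of the flox library, all 25 mitosis genes and 16 of 17 S phase genes are highest in the row of T/NK-like barcodes. In that row 22 of the 25 mitosis genes and 15 of the 17 S phase genes are above their level in empty barcodes.

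In the flox library all 25 mitosis genes and 16 of the 17 S phase genes were highest in T/NK-like barcodes among the 6 classes, the exception being E2f1, the activator of S phase transcription, in macrophage/monocyte-like barcodes. In the library labelled PSCs-MCT1-/- the same was true of 18 mitosis genes and 16 S phase genes. There Cdc20, the activator of the anaphase-promoting complex, Kif20a, a kinesin of cytokinesis, and Prc1, which bundles the microtubules of the central spindle, were highest in tumor-like barcodes, as was Cdc6, which loads the replicative helicase, although only at 4.11 against 4.09 CPM. Bub1, Cenpe, Cenpf and Plk1 were highest in its 112 endothelial-like barcodes, of which 2 held 79.2% of the class's mitosis UMIs.

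Barcodes with at least 5 UMIs and 2000 CPM of the mitosis list (mitosis-high) numbered 192 and 392 in tumor-like, 178 and 107 in macrophage/monocyte-like and 60 and 27 in T/NK-like barcodes, or 11.8% (9.14 to 14.9%) and 6.04% (4.02 to 8.67%) of the last. A further 70 and 172 tumor-like and 43 and 23 T/NK-like barcodes lay between 1000 and 2000 CPM, so the class is a range and not a cell type. The mitosis genes chose these barcodes and are not read in them. Relative to barcodes under 500 CPM of the same class, the S phase genes with at least 50 UMIs were at least 2-fold higher for 9 of 16 genes in tumor-like flox barcodes, where 4.55% of all genes were, and for 9 of 17 in the library labelled PSCs-MCT1-/-, where 4.02% of all genes were. The counts were 12 of 14 (all genes 5.33%) and 13 of 14 (6.21%) in macrophage/monocyte-like barcodes, and 9 of 10 (5.68%) and 5 of 5 (5.55%) in T/NK-like barcodes. A gene with few UMIs could reach 50 mainly through the barcodes where it was high, so that these counts over 5 to 17 of the 17 genes describe those genes and support nothing further. Mitosis-high tumor-like barcodes of the flox library had a median of 8857 UMIs against 18444 in barcodes under 500 CPM, while the medians were 14733 and 15936 in the library labelled PSCs-MCT1-/-. In the other 2 classes mitosis-high barcodes were the deeper ones. Their medians in T/NK-like barcodes were 8459 against 2940 UMIs in flox and 7265 against 2421 in the other library. In macrophage/monocyte-like barcodes they were 9889 against 6183 and 8192 against 4837 UMIs. The part of depth in these ratios was not tested.

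Of the S phase genes, Pclaf and Rrm2 stood far above the rest of the class in mitosis-high barcodes. Pclaf, a PCNA-associated factor of DNA synthesis, was 27.6-fold and 24.6-fold higher in mitosis-high tumor-like barcodes, 54.4-fold and 49.3-fold in macrophage/monocyte-like and 50.2-fold and 181-fold (on few UMIs in low barcodes, 48.7 to 1517) in T/NK-like ones. Rrm2, the regulated subunit of ribonucleotide reductase, was 10.6-fold and 8.77-fold higher in tumor-like and 27.7-fold and 20.3-fold higher in macrophage/monocyte-like barcodes. In tumor-like barcodes the ratios were 1.60 and 0.96 for Cdc6, 1.31 and 1.02 for Cdt1, and 1.00 and 1.30 for E2f1, all with intervals that include 1, while the Mcm subunits ranged from 1.54 (Mcm2) to 6.13 (Mcm5) in flox and from 1.71 (Mcm4) to 3.86 (Mcm5) in the other library. Of the other mitosis genes of a list of 42, at least 2-fold higher levels were seen for 38 of 39 and 40 of 42 with enough UMIs in tumor-like barcodes (all genes 4.55% and 4.02%), with median ratios of 23.0 and 19.99 beside 0.96 and 0.94 for all genes. Cks1b and Cks2, small partners of cyclin-dependent kinases, were 4.75-fold and 7.02-fold higher in the flox library and 4.68-fold and 7.29-fold in the other. The 17 of 18 G1 cyclins, kinases and inhibitors with enough UMIs had median ratios of 1.14 and 0.99, beside 0.96 and 0.94 for all genes. Tumor markers summed to 228 CPM in mitosis-high and 212 CPM in low macrophage/monocyte-like barcodes of the flox library, and to 274 and 257 CPM in the other library. Macrophage markers summed to 1701 against 1344 CPM in T/NK-like barcodes of flox and to 553 against 808 CPM in the other library. In tumor-like barcodes they were at 415 against 321 and 231 against 207 CPM. T/NK markers in T/NK-like barcodes were at 5952 against 8319 and 5028 against 6182 CPM. The part of RNA from other cells was not tested.

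Tumor-like barcodes were also sorted by the sums of both lists, with the gene in question left out of its sum, to describe how the single genes differ between barcodes rich in 1 list and poor in the other. With all genes in the sums, 29 and 55 tumor-like barcodes were high for S phase (at least 1000 CPM and 5 UMIs) and low for mitosis (under 500 CPM), 93 and 176 were high for mitosis and low for S phase, and 51 and 82, more than the first set, were high for both and are not compared. The sums chose the sides, so that the direction of the members follows from the choice and is not a finding, and only the size of each gene's difference is described. The exceptions in direction were in flox, where Cdc6 was higher in mitosis barcodes on 1 and 6 UMIs and Ccne2 had none.

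Of the mitosis genes, Top2a, the topoisomerase that untangles sister DNA, differed least between these barcodes in flox. It was at 90.0 CPM in S phase and 217 CPM in mitosis barcodes there (2.41-fold, 1.64 to 3.68) and at 72.6 and 278 CPM in the other library (3.83-fold, 3.02 to 4.93). Cdk1, the kinase that drives mitotic entry, differed least in the other library, at 74.2 and 169.6 CPM (2.29-fold, 1.79 to 2.95). In flox it was at 45.9 and 180.5 CPM (3.93-fold, 2.29 to 7.32), and Aurkb, on 2 and 30 UMIs, at 3.77-fold (0.96 to 32.6). Cenpf and Ube2c had few UMIs in S phase barcodes. Cenpf, a kinetochore protein of late G2, had 3 UMIs there in each library and was at 10.3 and 473 CPM in the flox library and at 3.25 and 418 CPM in the other, and Ube2c, the ubiquitin-conjugating enzyme of the anaphase-promoting complex, was at 17.3 and 462 CPM and at 10.5 and 449 CPM.

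Among the S phase genes, Mcm5 of the replicative helicase went from 92.4 CPM in S phase barcodes to 3.43 CPM in mitosis barcodes of the flox library and from 86.1 to 9.81 CPM in the other. Pcna, the sliding clamp of DNA polymerase, went from 238 to 51.6 CPM and from 227 to 63.9 CPM. Tyms, which makes thymidylate, differed least, with 0.60 (0.39 to 0.95) and 0.89 (0.66 to 1.20) of its S phase level, and Pclaf kept 0.45 (0.29 to 0.70) and 0.78 (0.60 to 1.01).

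Between the libraries, T/NK-like barcodes labelled PSCs-MCT1-/- held less of the mitosis genes than those of flox mice. The summed level was 1032 against 1818 CPM, a ratio of 0.57 (0.53 to 0.60), and all 25 genes had a ratio below 1. Of the 22 mitosis genes with at least 50 UMIs, 18 were at least 1.5-fold lower and 0 higher, where 9.15% of 7206 genes were lower and 6.20% higher, and the median ratio was 0.57 beside 0.98 for all genes. The S phase genes were lower by less, at 741 against 964 CPM in sum, a ratio of 0.77 (0.71 to 0.83), with 3 of 13 genes (Mcm5, Pclaf and Gins2) past 1.5-fold lower and 1 (Cdt1) higher. The 2 libraries also differed in T/NK-like depth, with medians of 3114 and 2474 UMIs, and in acinar and macrophage RNA, with summed macrophage markers of 1445 CPM in flox and 730 CPM in the other. The heat shock gene Hspa1a was at 508 CPM in flox and 23.2 CPM in the other library in T/NK-like barcodes, at 1098 and 119 CPM in macrophage/monocyte-like, at 196 and 63.2 CPM in PSC-like and at 24.1 and 1.87 CPM in tumor-like barcodes. The part of these in the ratios was not tested.

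By role, the chromosome and kinetochore genes named next were lower in T/NK-like barcodes. Mki67, which coats mitotic chromosomes, was at 173 CPM in flox and 105 CPM in the library labelled PSCs-MCT1-/- (ratio 0.61, 0.50 to 0.73). Top2a was at 232.5 and 140.5 CPM (0.60, 0.51 to 0.71). Cenpa, the histone of the centromere, was at 163 and 109 CPM (0.67, 0.55 to 0.81), just short of 1.5-fold, and Cenpf and the kinetochore motor Cenpe had ratios of 0.49 and 0.61. For these genes the counting intervals of the 2 libraries did not overlap.

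Of the kinases, cyclins and their partners, Cdk1 was at 74.8 and 40.2 CPM (0.54, 0.39 to 0.73), its cyclins Ccnb1 and Ccna2 had ratios of 0.57 (0.34 to 0.92) and 0.62 (0.43 to 0.88), while Ccnb2, a second B-type cyclin, was at 58.0 and 51.1 CPM, within counting error. Plk1, a kinase of spindle assembly, was at 27.1 and 8.18 CPM (0.30, 0.15 to 0.57). Aurkb, the kinase of the chromosomal passenger complex, and its partners Birc5 and Cdca8 had ratios of 0.57, 0.51 and 0.47, and Aurka, the centrosome kinase, rested on 30 and 12 UMIs (0.58, 0.27 to 1.17). The spindle checkpoint genes Bub1 and Bub1b had ratios of 0.45 (0.19 to 0.98) and 0.98 (0.57 to 1.68).

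Among the genes of the spindle and of mitotic exit, the kinesin Kif11, the spindle proteins Tpx2, Hmmr and Nusap1, and Prc1 had ratios from 0.45 (Hmmr) to 0.59 (Nusap1), and Kif20a had 0.50 (0.21 to 1.11) on 26 and 9 UMIs. Ube2c was at 172 and 70.2 CPM (0.41, 0.33 to 0.51), Cdc20 had a ratio of 0.66 (0.43 to 1.00), and Cdca3, an entry factor that leads to degradation of Wee1, was at 38.8 and 38.2 CPM. Of the S phase genes, Pclaf was at 213 and 86.6 CPM (0.41, 0.33 to 0.50) and Pcna at 169 and 127 CPM (0.75, 0.63 to 0.90). The helicase subunits Mcm2, Mcm3, Mcm4 and Mcm6 had ratios from 0.84 to 1.15 with intervals that include 1, whereas Mcm5 (0.66, 0.45 to 0.96) and Mcm7 (0.68, 0.48 to 0.93) were lower. Tyms, Rrm1, Rrm2 and the helicase cofactor Gins2 lay between 0.65 and 0.91 with intervals that include 1. Cdc6, E2f1 and the G1 to S cyclins Ccne1 and Ccne2 each had 17 UMIs or fewer in either library and were not resolved at this depth. Cdt1, the licensing factor, stood apart with 22.9 CPM in flox and 38.2 CPM in the other library (1.67, 1.12 to 2.50).

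T/NK-like barcodes were divided by their Cd8a, Cd8b1 and Cd4 UMIs. In CD8+ barcodes (326 and 215) the mitosis genes summed to 1446 CPM in flox and 1254 CPM in the library labelled PSCs-MCT1-/-, a ratio of 0.87 (0.80 to 0.93), and the S phase genes had a ratio of 0.97 (0.88 to 1.07). Of these barcodes, 31 and 21 were mitosis-high. In CD4+ barcodes (69 and 68) the mitosis level was 2993 against 1066 CPM, a ratio of 0.36 (0.31 to 0.41), on 16 and 3 mitosis-high barcodes. In the remaining T/NK-like barcodes (113 and 164) it was 1839 against 508 CPM (0.28, 0.23 to 0.32), on 13 and 3 mitosis-high barcodes. The low ratios outside the CD8+ set thus rested on few mitosis-high barcodes, and the difference between the subsets was not tested. The 69 and 68 CD4+ barcodes held 418925 and 204441 UMIs in all, so that they were deeper in flox, and the 326 and 215 CD8+ barcodes held 1342474 and 878066. The part of depth in the subsets was not tested.

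In tumor-like barcodes the mitosis genes were higher in the library labelled PSCs-MCT1-/-. The sum was 689 against 542 CPM, a ratio of 1.27 (1.25 to 1.29), and 24 of 25 genes had a ratio above 1, with Hmmr at 0.97 (0.86 to 1.10). Past 1.5-fold, however, there were only Cdca3 (16.0 and 29.7 CPM, 1.86, 1.68 to 2.06) and Aurkb (4.76 and 7.53 CPM, 1.58, 1.31 to 1.92) among the mitosis genes and Mcm3 (9.91 and 15.2 CPM, 1.53, 1.34 to 1.75) among the S phase genes, where 6.39% of 13247 genes were higher and 6.99% lower. Mki67 was at 25.8 and 36.0 CPM (1.39, 1.28 to 1.52) and Cenpa at 37.2 and 54.0 CPM (1.45, 1.36 to 1.56), while Top2a was at 72.3 and 78.3 CPM (1.08, 1.03 to 1.14). The S phase sum was 330 against 281 CPM, a ratio of 1.17 (1.14 to 1.20), with 13 of 17 genes above 1. Rrm1, the large subunit of ribonucleotide reductase, had a ratio of 1.496 (1.36 to 1.65) and Cdt1 1.47 (1.32 to 1.64), while Cdc6 was at 6.01 and 4.11 CPM (0.68, 0.56 to 0.83) and Tyms at 40.7 and 37.5 CPM (0.92, 0.86 to 0.99). The share of mitosis-high barcodes, 9.43% (8.20 to 10.8%) in flox and 9.98% (9.06 to 10.96%) in the other library, differed by less than its counting error. The thinned share with mitosis UMIs, 11.4% in flox and 12.9% in the other library, turned to 15.7% and 13.6% with classes taken from clusters and to 12.3% and 12.1% with a mitochondrial limit of 15%. The median ratio of all genes in tumor-like barcodes was 1.02. Summed PSC markers were at 652 CPM in flox and 432 CPM in the other library in these barcodes, and summed macrophage markers at 332 and 214 CPM, and their part in the ratios was not tested.

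**Figure D4:**
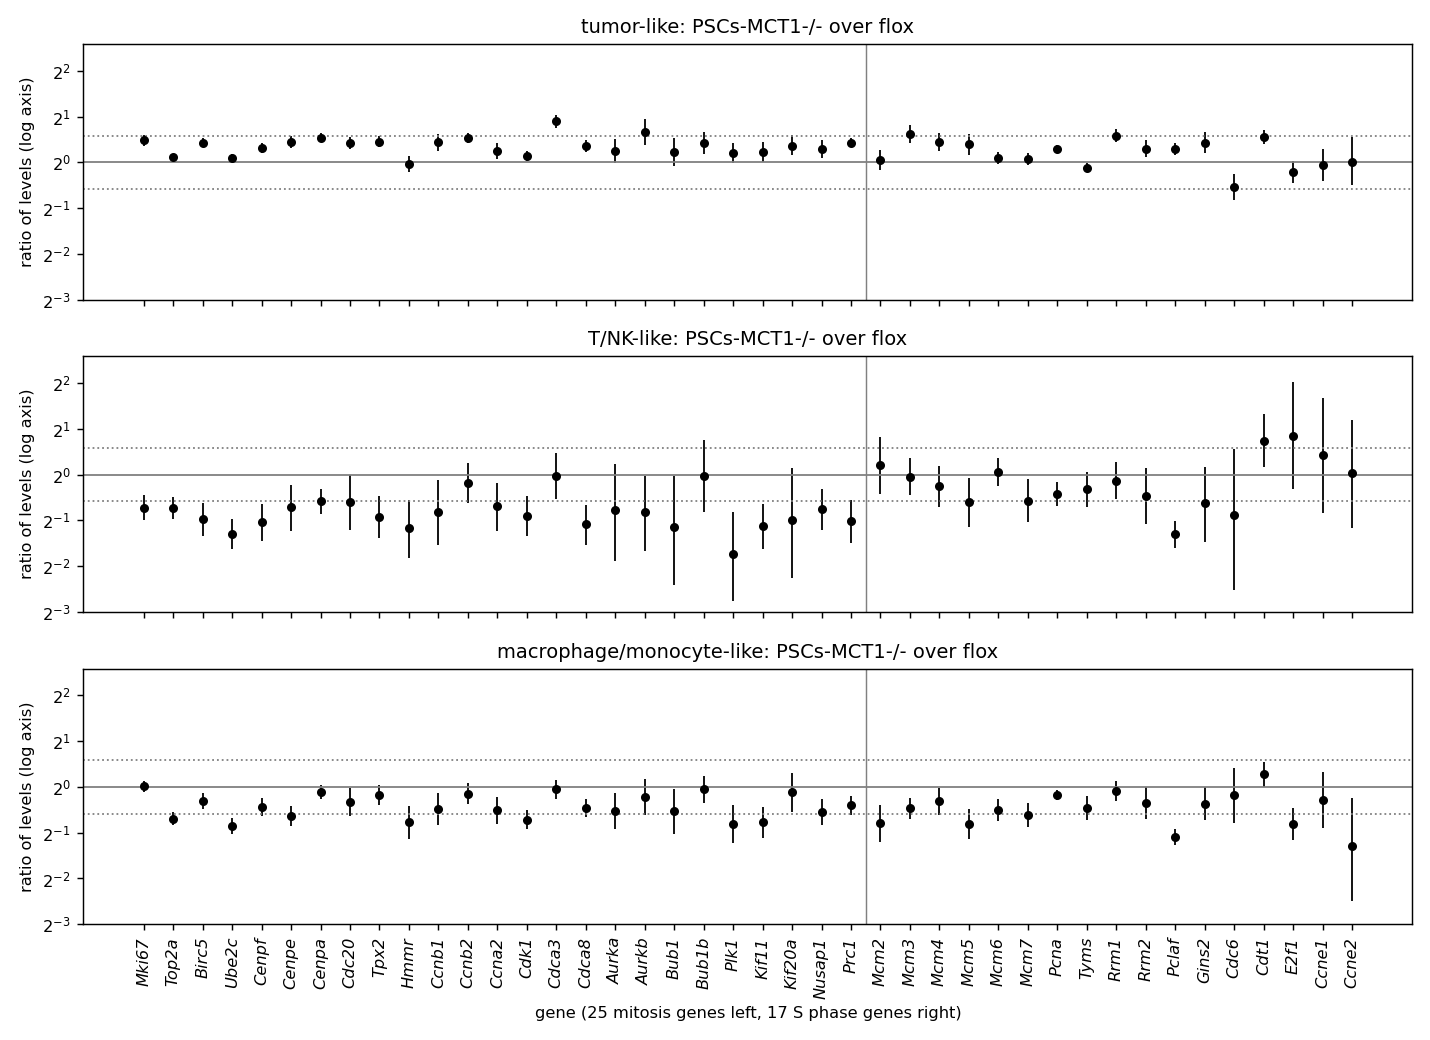
Ratio of the level in the library labelled PSCs-MCT1-/- to that in flox (log axis) for each of the 42 genes in 3 classes, with 95% counting intervals and dotted lines at 1.5-fold. The mitosis genes lie mostly above 1 in tumor-like barcodes and below 1 in the other 2 classes.

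The pooled tumor-like S phase ratio depended on the upper limit of 5000 genes per barcode. The level of both lists varied with the number of genes detected, and tumor-like barcodes over the limit, 1915 in flox and 1194 in the library labelled PSCs-MCT1-/-, held 1701 and 2707 CPM of the mitosis list, against 541 and 689 CPM within it. All 42 genes were higher over the limit in both libraries, by 1.87-fold to 4.33-fold and 2.07-fold to 5.40-fold for mitosis genes and by 1.49-fold to 4.70-fold and 1.40-fold to 4.76-fold for S phase genes. With no upper limit the tumor-like mitosis level was 1316 CPM in flox and 1486 CPM in the other library, a ratio of 1.13. The pooled S phase level was then 531 and 526 CPM, a ratio of 0.99. Pooled over the barcodes on each side of the limit, however, the S phase level was higher in the library labelled PSCs-MCT1-/-. It was 281 and 330 CPM within the limit and 655 and 827 CPM over it. Over the limit lay 1915 of 3883 tumor-like barcodes in flox and 1194 of 4964 in the other library. The part of this mix in the pooled ratio was not tested. With no upper limit tumor-like barcodes stood above macrophage/monocyte-like ones in both libraries and, for the mitosis genes in the library labelled PSCs-MCT1-/-, above T/NK-like ones. Their thinned shares with at least 2 mitosis UMIs were then 17.3% and 19.5%, against 16.3% and 9.42% in T/NK-like barcodes. Without the limit 1 member, not 3, was past 1.5-fold higher, and the share of all genes was not computed for this setting. Among barcodes with 5500 to 6000 genes the mitosis level was 1352 CPM in flox and 3098 CPM in the other library, while among those with 1000 to 2000 genes it was 1512 and 1136 CPM. In each bin under 4000 genes both lists were lower in the library labelled PSCs-MCT1-/-, with S phase levels of 376 and 265 CPM at 3000 to 4000 genes. From 4000 to 6000 genes both lists were higher there. Over 6000 genes the mitosis level stayed higher, while the S phase level was 1028 and 1005 CPM at 6000 to 7000 genes, with overlapping intervals. Whether barcodes over the limit hold 1 cell or several was not tested.

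**Figure D5:**
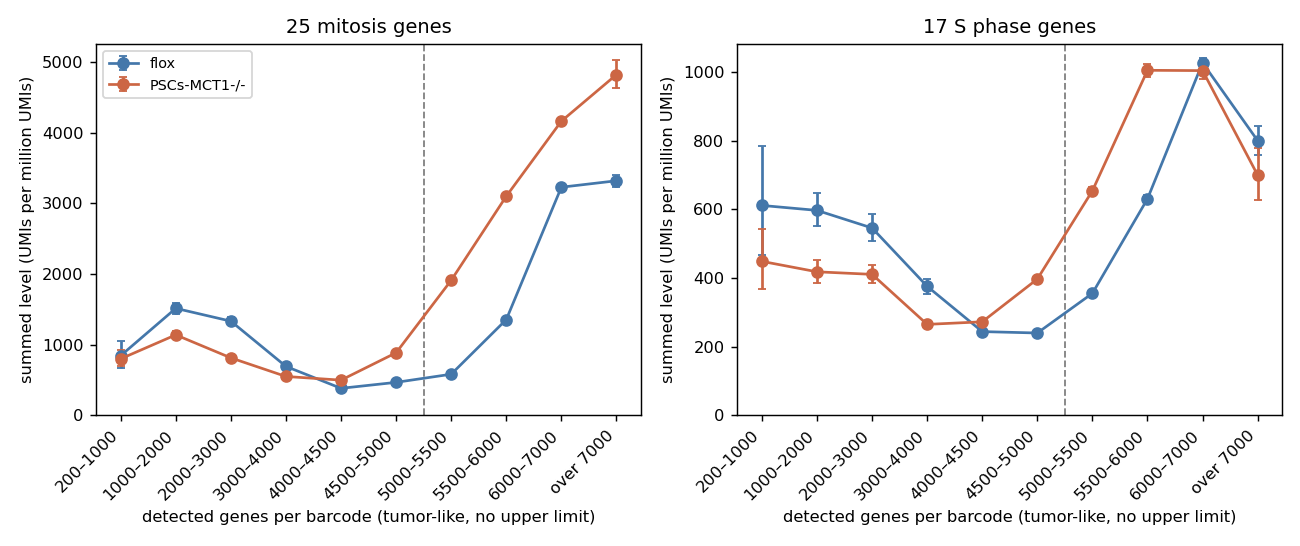
Summed level of the mitosis genes (left) and S phase genes (right) in tumor-like barcodes by number of detected genes, with no upper gene limit, in CPM with 95% counting intervals. The dashed line marks the limit of 5000 genes, to the right of which the level of the mitosis genes is higher in each further bin, and the last bin holds 29 flox barcodes and 8 of the other library.

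In macrophage/monocyte-like barcodes both lists were lower in the library labelled PSCs-MCT1-/-. The mitosis genes summed to 848 against 647 CPM, a ratio of 0.76 (0.74 to 0.79), with 24 of 25 genes below 1, and the S phase genes to 447 against 334 CPM, a ratio of 0.75 (0.72 to 0.78), with 16 of 17 below 1. At least 1.5-fold lower were 7 of 25 mitosis genes (Top2a, Ube2c, Cenpe, Hmmr, Cdk1, Plk1 and Kif11) and 5 of 16 S phase genes with enough UMIs (Mcm2, Mcm5, Mcm7, Pclaf and E2f1), where 8.95% of 11156 genes were lower and 7.20% higher, and 0 members were higher. Ube2c was at 68.8 and 38.2 CPM (0.56, 0.49 to 0.63) and Pclaf at 67.0 and 31.5 CPM (0.47, 0.41 to 0.53). In contrast Mki67 was at 89.9 and 91.1 CPM (1.01, 0.93 to 1.10), and Cdca3 and Bub1b had ratios of 0.97 with intervals that include 1, so the mitosis genes did not differ to the same extent. Mitosis-high barcodes made up 7.97% (6.88 to 9.17%) in flox and 5.31% (4.37 to 6.38%) in the other library.

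PSC-like barcodes, the class in which the design deletes Slc16a1, had low levels in both libraries. The mitosis sum was 253 and 227 CPM, a ratio of 0.90 (0.83 to 0.98) that turned to 1.07 when the 8% of barcodes with the highest doublet scores were left out, and the S phase sum 214 and 212 CPM, a ratio of 0.99 (0.91 to 1.08). Hmmr and Cdca8 were past 1.5-fold lower among 16 mitosis genes with enough UMIs, Pclaf lower and Mcm3 and Rrm2 higher among 12 S phase genes, where 8.40% of 10061 genes were lower and 9.10% higher. Without the upper gene limit 8 rather than 3 members were lower, a count for which the share of all genes was not computed. Rrm2 was at 5.80 and 13.6 CPM (2.35, 1.47 to 3.82) and Pcna at 47.6 and 65.5 CPM (1.38, 1.15 to 1.64). Only 6 and 4 PSC-like barcodes were mitosis-high, which held 41.1% and 34.0% of the class's mitosis UMIs. The 6 of the flox library held 2033 CPM of summed macrophage markers against 585 CPM in the PSC-like barcodes low in mitosis genes, and the 4 of the other library held 2572 CPM of summed tumor markers against 1411 CPM. The reverse held for tumor markers in flox, at 564 against 1451 CPM, and for macrophage markers in the other library, at 92.5 against 705 CPM. The part of RNA from other cells in the sums was not tested.

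Further genes of the cell cycle were counted in the same way. Of 42 other mitosis genes, 11 of 29 with enough UMIs were past 1.5-fold lower in T/NK-like barcodes (all genes 9.15%) and 9 of 42 higher in tumor-like barcodes (all genes 6.39%), with median ratios of 0.70 and 1.23. In macrophage/monocyte-like barcodes 11 of 40 were lower (all genes 8.95%, median ratio 0.73), and in PSC-like barcodes 1 of 15 was higher (all genes 9.10%) and 1 lower (8.40%). Of 33 other S phase genes, 8 of 23 were lower in T/NK-like (all genes 9.15%), 13 of 32 lower in macrophage/monocyte-like (all genes 8.95%) and 3 of 33 higher in tumor-like barcodes, a count near the 6.39% of all genes, with median ratios of 0.78, 0.75 and 1.21. Dut, which clears dUTP, was at 276 and 180.0 CPM in T/NK-like barcodes (0.65, 0.56 to 0.75) and at 286 and 299 CPM in tumor-like barcodes (1.04, 1.02 to 1.07). Smc4, a condensin subunit, was at 249.8 and 189.6 CPM in T/NK-like barcodes (0.76, 0.65 to 0.88) and at 110.4 and 109.7 CPM in tumor-like barcodes (0.99, 0.95 to 1.04).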

How the data were processed

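The series holds single-cell RNA sequencing of 2 whole tumor preparations, 1 per condition, prepared from dissociated tumors with the SeekOne MM 3′ kit per the labels, although the methods name other platforms. The authors trimmed reads with Fastp, counted UMIs with SeekOneTools and deposited raw UMI counts per gene and barcode. The submitters' processing notes name Seurat 4.0.0 and GRCh38, while the gene identifiers are mouse Ensembl, which leaves the build open. The gene limits are the authors', and the UMI and mitochondrial limits were set here. Promoter positions are from RefSeq on GRCm38.p6.

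Barcodes with at least 500 UMIs, 200 to 5000 genes and a mitochondrial share up to 8% were kept, and libraries held 177334432 (flox) and 151118092 UMIs in all. Doublets were not removed in the main values. A barcode took the class whose profile over fixed marker genes, mixed with 20% free RNA of empty barcodes, had the highest multinomial likelihood by a margin of 5 log units. The form of this rule was settled after the data were seen, when earlier forms had assigned barcodes poorly. Sums of UMIs over the barcodes of a class were expressed as CPM, with exact Poisson intervals for levels, conditional exact intervals for ratios and Clopper-Pearson intervals for shares, all at 95%. A gene was compared between libraries or barcode sets with at least 50 UMIs. No test was made, since cells are not replicates. On simulated Poisson counts at tumor-like and T/NK-like depth (13254 and 7198 genes, 200 changed 3-fold), all 200 passed 1.5-fold, which follows from the size of the change. Of the unchanged genes 1.16% and 4.24% passed it. The counts were drawn independently, whereas the mitosis UMIs lie in few barcodes, so these shares cover counting error only.

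The 42 genes, the lists and the markers were chosen with earlier results of these data known. All 42 genes are named, and of the further lists counts and up to 4 genes with the most UMIs in tumor-like barcodes per list and class. Ccnd3 was named outside this rule, after its values were seen. Alternatives are given at the end, and the level by class and the members past 1.5-fold were also recomputed with no upper gene limit, which was added after the data were seen. Versions were matplotlib 3.10.9, scikit-learn 1.9.0, pandas 2.3.3, scipy 1.17.1, numpy 2.4.6 and Python 3.11.15.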

Additional observations from a re-analysis of the deposited data

Results flagged for a closer look

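The ratio of the library labelled PSCs-MCT1-/- to flox lay on opposite sides of 1 in different classes. It was 1.27 for the mitosis genes in tumor-like barcodes, but 0.57 in T/NK-like, 0.76 in macrophage/monocyte-like, 0.62 in endothelial-like and 0.44 in neutrophil-like barcodes. For the S phase genes it was 1.17 in tumor-like barcodes, but 0.77 in T/NK-like, 0.75 in macrophage/monocyte-like, 0.47 in endothelial-like and 0.56 in neutrophil-like barcodes. Pooled with no upper gene limit, the tumor-like S phase ratio was 0.99, beside 0.79 in T/NK-like and 0.74 in macrophage/monocyte-like barcodes. It then no longer lay above 1, although the level pooled on each side of the limit was higher in the library labelled PSCs-MCT1-/-. In each bin under 4000 detected genes the level was lower in that library. The endothelial-like and neutrophil-like values rest on few mitosis-high barcodes, 9 against 2 and 9 against 3. The smaller classes did not all lie below 1. Their mitosis ratios were 0.51 in acinar-like, 1.04 in dendritic-like, 7.34 in B-like and 3.04 in plasma-like barcodes. Their S phase ratios were 0.34, 0.63, 3.07 and 1.75 in the same order. These values rest on few barcodes, for example 25 and 123 B-like and 32 and 50 plasma-like. The difference between classes was not tested, since each class has 1 library per condition.

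Tumor-like barcodes with more than 5000 genes, which the filter leaves out, held 1701 CPM of the mitosis genes and 655 CPM of the S phase genes in flox, and 2707 and 827 CPM in the other library. All 4 values were above the level in empty barcodes.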

How the results depend on the processing

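No paired analysis was possible because each condition has 1 library, and for the same reason no replicate could be left out. The mitosis ratio of the library labelled PSCs-MCT1-/- to flox stayed above 1 in tumor-like barcodes and below 1 in T/NK-like and macrophage/monocyte-like barcodes under each of 9 alternatives. The cause of the following shifts was not tested. With no upper gene limit, the S phase ratio in tumor-like barcodes went from 1.17 to 0.99, the mitosis ratios were 1.13 in tumor-like and 0.81 in PSC-like barcodes, and the thinned mitosis shares of tumor-like barcodes were 17.3% and 19.5%. Levels without the limit were 1316 and 1486 CPM (mitosis) and 531 and 526 CPM (S phase) in tumor-like barcodes, and 359 and 289 CPM (mitosis) and 229 CPM (S phase, flox) in PSC-like barcodes. Past 1.5-fold, 1 member was then higher in tumor-like barcodes, and 1 higher and 8 lower in PSC-like barcodes. With the 8% highest doublet scores left out, the PSC-like mitosis ratio turned from 0.90 to 1.07, and the mitosis share of macrophage/monocyte-like flox barcodes was 9.32%. With classes taken from clusters, the ratios were 1.21 (mitosis) and 1.10 (S phase) in tumor-like and 0.76 (mitosis) in PSC-like barcodes, and the tumor-like shares were 15.7% in flox and 13.6% in the other library, the reverse of the main order. With a wider margin between classes they were 1.35, 1.21 and 0.67, with tumor-like shares of 9.51% and 10.9%. With free RNA subtracted, the mitosis ratios were 1.36 (tumor-like), 0.52 (T/NK-like), 0.69 (macrophage/monocyte-like) and 0.62 (PSC-like), and the S phase ratios 1.32 (tumor-like) and 0.71 (macrophage/monocyte-like). Without the gene with the most UMIs, the mitosis ratios were 1.30 (tumor-like) and 0.73 (macrophage/monocyte-like), and the S phase ratios 0.87 (T/NK-like), 0.70 (macrophage/monocyte-like) and 0.88 (PSC-like). Thinned to 2000 UMIs, the mitosis shares were 17.1% and 17.7% (tumor-like), 16.3% and 12.4% (macrophage/monocyte-like), 28.7% and 18.9% (T/NK-like) and 6.77% (PSC-like, flox). Asking for 3 UMIs of the list gave 7.92% and 8.56%, 7.49% and 4.81%, 9.74% (T/NK-like, flox), and 1.74% and 1.11% (PSC-like). At 2-fold, 8 members were lower in T/NK-like and 1 in macrophage/monocyte-like barcodes, 0 were higher in tumor-like and T/NK-like barcodes, and 1 was higher and 1 lower in PSC-like barcodes. With at least 200 UMIs per gene, 12 were lower and 0 higher in T/NK-like and 0 in PSC-like barcodes in either direction. The share of all genes was not computed at 2-fold, at 200 UMIs or with no upper gene limit. These counts of members therefore have no background and are not read as results about the members. Over all results and settings, 115 values moved by less than their counting error or stayed within 1.5 times the count and 59 moved further. A further 2 ratios, with main intervals that exclude 1, crossed 1. The PSC-like S phase ratio, with an interval that includes 1, is not counted there. It went from 0.99 to 1.02 with classes taken from clusters and to 1.08 with free RNA subtracted. A mitochondrial limit of 15% and a minimum of 1000 UMIs moved none of the ratios past their counting error. Small classes limit the rest, since PSC-like barcodes held 1223 and 1003 mitosis UMIs and many genes of T/NK-like barcodes under 50.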

Other observations

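The 18 G1 cyclins, kinases and inhibitors had median ratios of 0.89 in macrophage/monocyte-like, 0.85 in T/NK-like, 0.91 in PSC-like and 1.03 in tumor-like barcodes over those with enough UMIs, beside 1.01, 0.98, 0.99 and 1.02 for all genes. In macrophage/monocyte-like barcodes 1 of 16 was past 1.5-fold higher (all genes 7.20%) and 3 lower (8.95%). In T/NK-like barcodes 0 of 15 were higher (all genes 6.20%) and 2 lower (9.15%). In PSC-like barcodes 1 of 17 was higher (all genes 9.10%) and 1 lower (8.40%), and in tumor-like barcodes 1 of 17 was higher (6.39%) and 1 lower (6.99%). Cdkn1a (p21), an inhibitor of cyclin-dependent kinases, was at 138 CPM in flox and 219 CPM in the library labelled PSCs-MCT1-/- in tumor-like barcodes (1.59, 1.54 to 1.65), at 176 and 242 CPM in PSC-like barcodes (1.38, 1.26 to 1.51) and at 582 and 593 CPM in macrophage/monocyte-like barcodes (1.02, 0.99 to 1.05). In mitosis-high against low tumor-like barcodes it was at 188 and 130 CPM in flox but at 161 and 231 CPM in the other library. Ccnd1, the D-type cyclin that starts the passage through G1, was at 208 and 215 CPM in tumor-like barcodes (1.03, 1.00 to 1.07) and at 115 and 81.0 CPM in macrophage/monocyte-like barcodes (0.71, 0.65 to 0.77). Ccnd3, another D-type cyclin, went the other way in macrophage/monocyte-like barcodes, at 44.3 and 102 CPM (2.30, 2.08 to 2.54). Its ratios were 1.37 in tumor-like, 1.28 in T/NK-like and 1.35 in PSC-like barcodes. Btg2, an antiproliferative gene of the early stress response, was at 1105 CPM in mitosis-high and 2482 CPM in low tumor-like barcodes of flox (0.45, 0.43 to 0.46) and at 1038 and 2130 CPM in those of the other library (0.49, 0.47 to 0.50).

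In the flox library 9 of 584 neutrophil-like barcodes were mitosis-high and held 74.6% of the class's mitosis UMIs. They had 1867 CPM of Elane and 929 CPM of Mpo, granule genes of neutrophil precursors, against 1.34 CPM and 0 in the barcodes low in mitosis genes. Summed macrophage markers were at 6173 against 2319 CPM in the same barcodes, and Lyz2 at 4051 against 1549 CPM. In the library labelled PSCs-MCT1-/- 3 barcodes were mitosis-high, with 1 UMI of Elane and 0 of Mpo. There the macrophage markers went the other way, at 1397 CPM in mitosis-high and 1682 CPM in low barcodes, as did Lyz2, at 486 and 721 CPM. Camp, another granule gene, was at 28424 CPM in mitosis-high and 508 CPM in low barcodes of flox and at 28183 and 462 CPM in those of the other library. These genes were chosen after their values were seen.

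B-like barcodes held 329 mitosis UMIs in 123 barcodes of the library labelled PSCs-MCT1-/-, or 1283 CPM, of which 3 barcodes held 82.7%, and 11 UMIs in 25 barcodes of flox.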
